A study of Mus musculus with 6 samples.

Results

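The genes described here carry a cell through the G1 phase and copy its DNA in S phase. They are 37 genes taken from a list of gene names, which was chosen with earlier results of these data known. All 37 were found among the 37991 genes counted in mouse liver and liver tumour. RNA sequencing was done on 6 libraries in 3 groups of 2. The control livers (the controls) came from mice with the TgAlbCre transgene alone, in which the albumin promoter drives Cre recombinase in hepatocytes. TgAlbCreKap1lox mice, which carry that transgene together with a Kap1 gene that Cre inactivates, gave the KAP1-deleted livers. Kap1, whose gene symbol is Trim28, is recruited to DNA by zinc finger proteins and silences genes there. The tumours were primary tumours of those TgAlbCreKap1lox mice. All mice were fed a high-fat diet for 27 weeks and were killed at 35 weeks of age. By the mouse codes in the labels, tumour 1 and KAP1-deleted liver 1 came from 1 mouse, tumour 2 and KAP1-deleted liver 2 from another, and each control liver from a mouse of its own, so that the 6 libraries hold 4 mice. Cre acts in hepatocytes, so other liver cells keep Kap1, and whether a nodule arose from 1 clone is not stated.

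A cell enters S phase when D-type and E-type cyclins, with their kinases, inactivate the retinoblastoma proteins and release E2F factors, which switch on the genes of DNA replication. Replication origins are bound by the origin recognition complex, on which Cdc6 and Cdt1 load the ring-shaped MCM2 to MCM7 helicase. Mcm10, Cdc45 and the GINS complex turn that ring into a moving helicase, behind which polymerases, the sliding clamp and its loader, and ligase copy both strands. In the adult liver most hepatocytes rest outside the cell cycle and can return to it.

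Genes held 39723997 to 62178752 counts per library. Trim28 stood at 32.5 and 35.9 CPM (counts relative to library size, scaled by the trimmed mean of M values, TMM) in the control livers, at 5.06 and 6.02 in the KAP1-deleted livers and at 5.22 and 4.59 in the tumours. It fell by 2.63 on the log2 scale in KAP1-deleted against control liver (edgeR adjusted p = 0.00393). Markers of liver cell types were summed in each library. The 8 hepatocyte markers summed to 101300 to 109900 CPM in the controls, 97740 to 104500 in the KAP1-deleted livers and 50730 to 67050 in tumours, where the albumin gene and the rest remained detected. The sums in the controls, KAP1-deleted livers and tumours were 544 to 565, 589 to 609 and 267 to 379 for macrophage markers, and 278 to 295, 302 to 304 and 190 to 207 for endothelial markers. For stellate cell markers they were 252 to 286, 236 to 307 and 167 to 226, and for cholangiocyte markers 18.7 to 34.8, 30.8 to 37.5 and 5.22 to 23.8. The stellate cell markers were split. Between tumour and KAP1-deleted liver 4 of the 8 had a log2 difference above 0, and the median was -0.11. Mean CPM in KAP1-deleted livers and tumours was 178.5 and 68.1 for Dcn, but 32.0 and 76.85 for Col3a1. Lymphocyte markers summed to 2.003 to 2.94, 1.82 to 6.91 and 3.42 to 6.78 CPM, and no marker of any list was at 0 in all 6 libraries. Between tumour and KAP1-deleted liver edgeR called 2 of 8 hepatocyte, 3 of 8 macrophage, 2 of 8 endothelial and 1 of 8 stellate cell markers lower, where 6.64% of all genes tested were called lower (adjusted p under 0.05), and none of the 7 lymphocyte and 5 cholangiocyte markers tested. The part of these cell types in the results below was not tested.

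The promoters of 6 genes are shown because 4 of these genes rose in tumours against KAP1-deleted liver and the other 2, Mcm10 and Tk1, were the members that fell in tumours against control liver. Each is the strand of the gene from 250 bases before to 50 bases after the annotated start, from RefSeq on build GRCm38.p6, and 30 of the 37 genes had an entry. Capitals mark CCAAT boxes and E2F-type motifs on either strand, which overlap in places. The E2F-type motifs searched were TTCCCGC as the common form, TTCGCGC as another, and the variants TTGCCGC as well as TTGGCGC.
Mcm5: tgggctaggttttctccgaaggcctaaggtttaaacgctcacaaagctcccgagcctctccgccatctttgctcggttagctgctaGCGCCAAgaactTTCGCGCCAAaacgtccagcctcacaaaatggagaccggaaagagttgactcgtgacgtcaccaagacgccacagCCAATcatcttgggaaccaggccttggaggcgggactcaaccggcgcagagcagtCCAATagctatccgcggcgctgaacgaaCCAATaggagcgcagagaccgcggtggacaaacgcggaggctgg
Mcm6: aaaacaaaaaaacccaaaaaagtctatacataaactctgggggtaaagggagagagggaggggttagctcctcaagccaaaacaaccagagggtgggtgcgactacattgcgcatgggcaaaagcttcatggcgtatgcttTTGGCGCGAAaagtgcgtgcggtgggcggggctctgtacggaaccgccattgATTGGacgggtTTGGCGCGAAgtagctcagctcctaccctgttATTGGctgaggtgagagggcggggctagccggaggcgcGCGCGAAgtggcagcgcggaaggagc
Rfc3: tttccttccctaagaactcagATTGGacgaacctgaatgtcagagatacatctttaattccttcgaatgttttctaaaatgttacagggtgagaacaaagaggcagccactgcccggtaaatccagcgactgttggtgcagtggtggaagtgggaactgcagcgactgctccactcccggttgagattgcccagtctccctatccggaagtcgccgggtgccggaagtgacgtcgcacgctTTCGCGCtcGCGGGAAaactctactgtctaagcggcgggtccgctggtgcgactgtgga
Brca1: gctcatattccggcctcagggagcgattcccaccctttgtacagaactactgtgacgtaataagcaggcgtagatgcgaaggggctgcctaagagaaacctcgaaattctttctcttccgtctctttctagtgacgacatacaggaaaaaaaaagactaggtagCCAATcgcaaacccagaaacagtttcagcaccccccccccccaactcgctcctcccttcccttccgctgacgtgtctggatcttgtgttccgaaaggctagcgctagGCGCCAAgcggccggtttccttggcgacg
Mcm10: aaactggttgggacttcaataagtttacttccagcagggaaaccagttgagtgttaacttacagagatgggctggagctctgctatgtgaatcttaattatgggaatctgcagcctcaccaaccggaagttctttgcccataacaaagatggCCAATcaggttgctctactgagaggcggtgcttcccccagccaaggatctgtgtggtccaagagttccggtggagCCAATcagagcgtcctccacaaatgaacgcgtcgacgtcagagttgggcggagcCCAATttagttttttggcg
Tk1: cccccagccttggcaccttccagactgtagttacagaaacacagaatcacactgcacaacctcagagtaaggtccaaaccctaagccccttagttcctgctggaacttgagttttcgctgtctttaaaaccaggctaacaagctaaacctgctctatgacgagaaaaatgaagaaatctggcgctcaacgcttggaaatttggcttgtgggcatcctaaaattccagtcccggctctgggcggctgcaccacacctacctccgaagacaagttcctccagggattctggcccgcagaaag
They lie at chr8:75109259-75109558 on the plus strand for Mcm5 and, on the minus strand, at chr1:128359656-128359955 for Mcm6, chr5:151651159-151651458 for Rfc3, chr11:101551906-101552205 for Brca1, chr2:5012742-5013041 for Mcm10 and chr11:117825965-117826264 for Tk1. The Mcm5, Mcm6, Rfc3 and Brca1 windows hold 3, 5, 2 and 1 E2F-type matches, and each also holds a CCAAT box. In Mcm5 and Mcm6 some of these matches overlap on opposite strands and were counted separately, so the distinct sites are fewer. Gins2, which also rose against KAP1-deleted liver, had no entry. Of the 30 promoters of members not called higher there, 18 (60%) hold an E2F-type motif and 16 (53.3%) a CCAAT box. The Mcm10 window holds 3 CCAAT boxes and no E2F-type match, and the Tk1 window holds neither. The last bases of the Mcm10 window are the start of TTGGCGC, so its end may cut a match. No E2F-type match was found either in the windows of Ccne1, E2f1, Cdc45, Mcm2, Orc6, Pcna, Rfc5 and Tyms. The E2f1 window lies within coding sequence of the gene, so it does not show the main promoter. It is counted in the shares given here. Among the 34 promoters of the 30 genes with an entry, which include several starts for Mcm7, Lig1 and Fen1, 22 (64.7%) hold an E2F-type motif. The share is 9.57% of all 32851 promoters in the table and 15.1% of the 14491 promoters of genes tested here. A CCAAT box stands in 20 of the 34 (58.8%), against 37.6% of promoters of genes tested. TTTGAA, the core of the cell cycle homology region, stands in 4 (11.8%) against 12.98%, and CACGTG, the E-box that MYC binds, in 4 (11.8%) against 9.25%. The median GC content was 59.5% in the member promoters and 59.7% in those of genes tested. These matches describe the letters in the windows only.

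**Figure D1:**
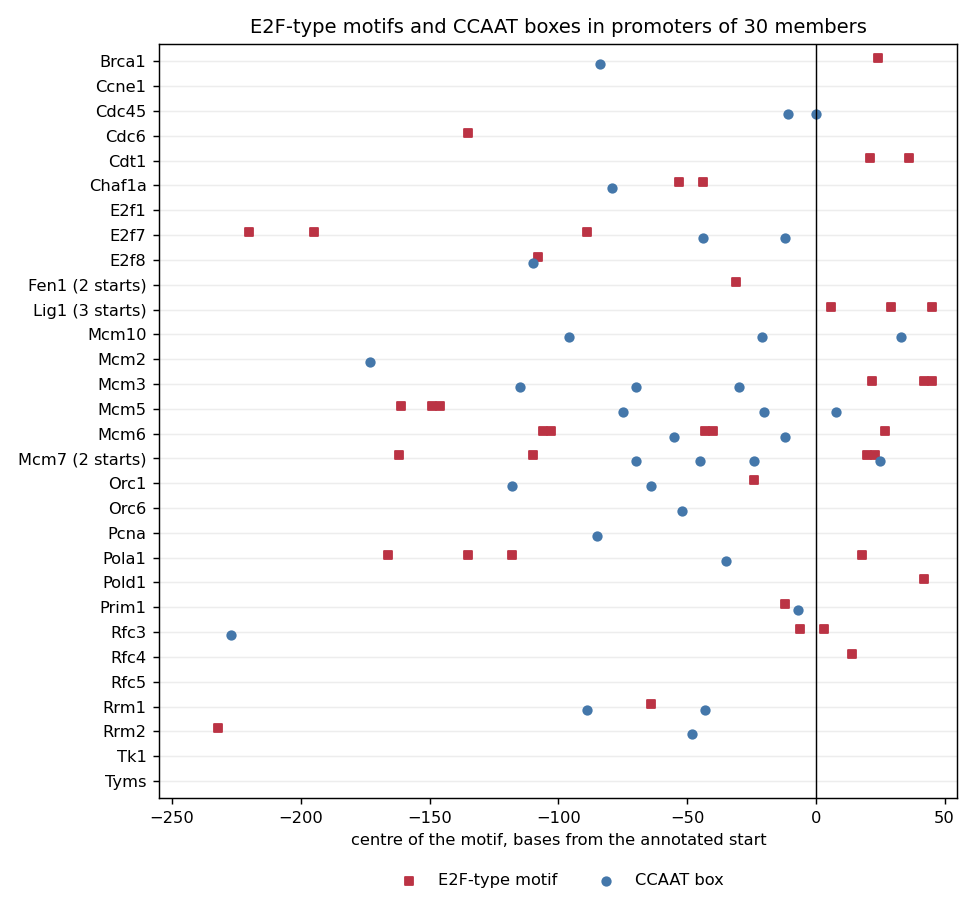
Positions of E2F-type motifs (red squares) and CCAAT boxes (blue circles) in the promoters of the 30 genes with an entry, as bases from the annotated start, which the black line marks. Motifs of several starts share a line, and 22 of the 34 promoters hold an E2F-type motif.

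These genes spanned a wide range of levels. The mean over the 6 libraries ran from 0.0947 CPM for Fen1 to 27.3 CPM for Mcm10, with a median of 3.17 CPM, and 8 genes were under 1 CPM, 22 between 1 and 10 and 7 above 10. The highest library was less than 2 times the lowest for 20 of the 37 genes and less than 3 times for 30. Mcm10 had the widest range, 9.34 times.

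**Figure D2:**
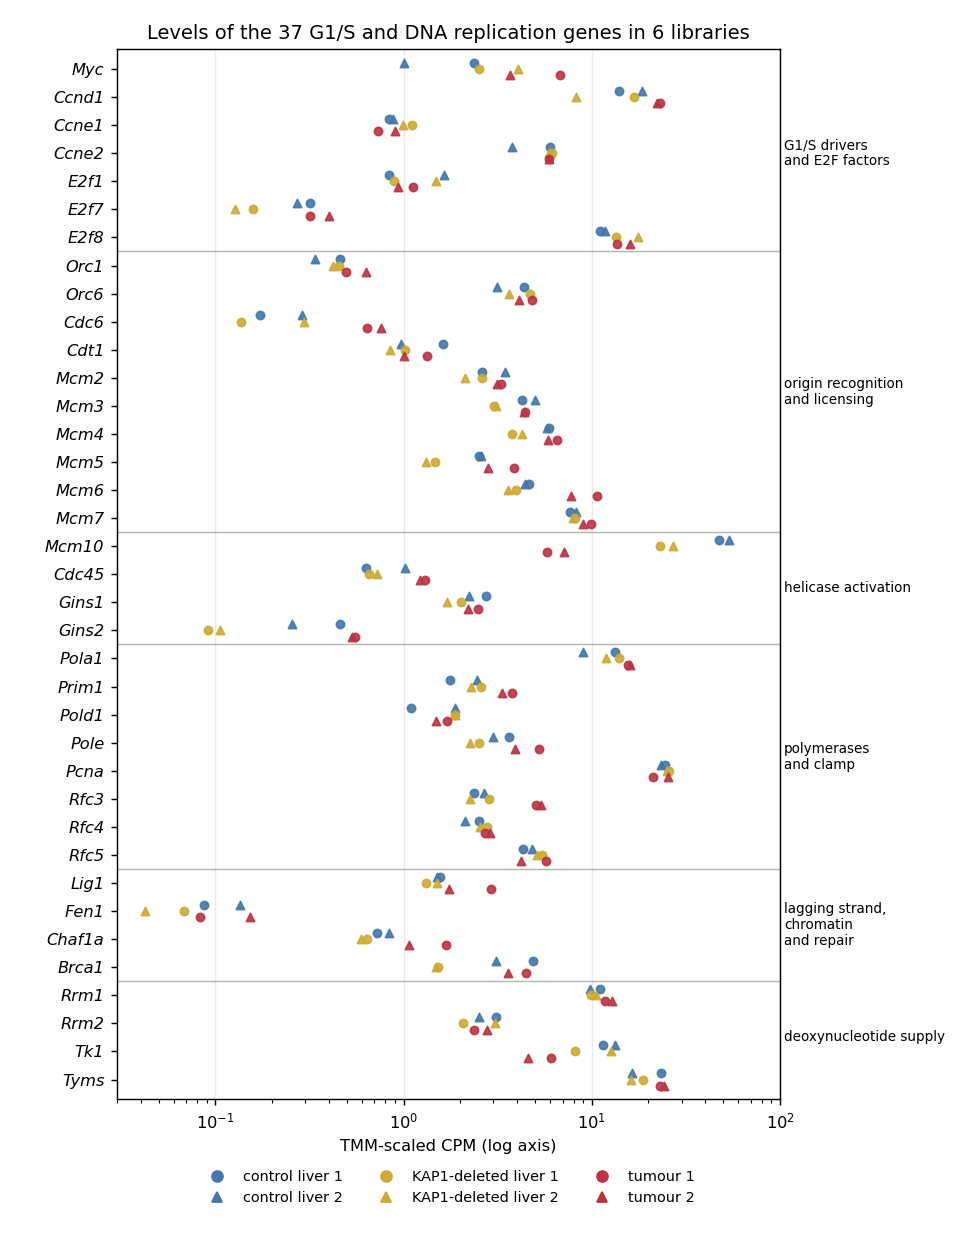
Level of each of the 37 genes in each library as TMM-scaled CPM on a log axis, grouped by role, with circles for replicate 1 and triangles for replicate 2. Most genes keep the 6 libraries within a 3-fold range, and Mcm10 falls from 47.1 and 53.8 CPM in the controls to 5.76 and 7.12 in tumours.

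In tumours against KAP1-deleted liver, which came from the same mice, Gins2, Brca1, Mcm6, Mcm5 and Rfc3 rose and Mcm10 fell. These are 5 genes higher and 1 lower of the 36 that could be tested. Over all 17558 genes tested, 4.8% were called higher and 6.64% lower, with an adjusted p under 0.05 in edgeR's quasi-likelihood test. Differences are log2 fold changes ± standard error (SE) from that test, with 2 libraries a group, and in such bulk tissue fewer cells of a type and less RNA per cell cannot be told apart. The median difference was 0.40 for the 36 genes and -0.03 for all genes tested, and 27 of the 36 were above 0. Of the 36, 18 differed by less than 0.5 and 9 by more than 1. An unadjusted p under 0.05 was reached by 15.

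In tumours against control liver, Mcm6 and Rfc3 rose, and Mcm10 and Tk1 fell, of the same 36 genes. The shares over all genes tested were 6.15% higher and 7.76% lower. The median difference was 0.27 for the 36 genes and -0.02 for all genes, and 27 were again above 0. This comparison uses the same 2 tumours as the one above, so the pair are not independent.

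In KAP1-deleted against control liver no member was called by edgeR in either direction, where 0.239% of all genes tested were called higher and 0.0968% lower. An unadjusted p under 0.05 was reached by 6 of the 36. DESeq2 called 2 lower, Brca1 and Mcm10, and limma-voom called none. The median difference was -0.13 against 0.00 for all genes.

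**Figure D3:**
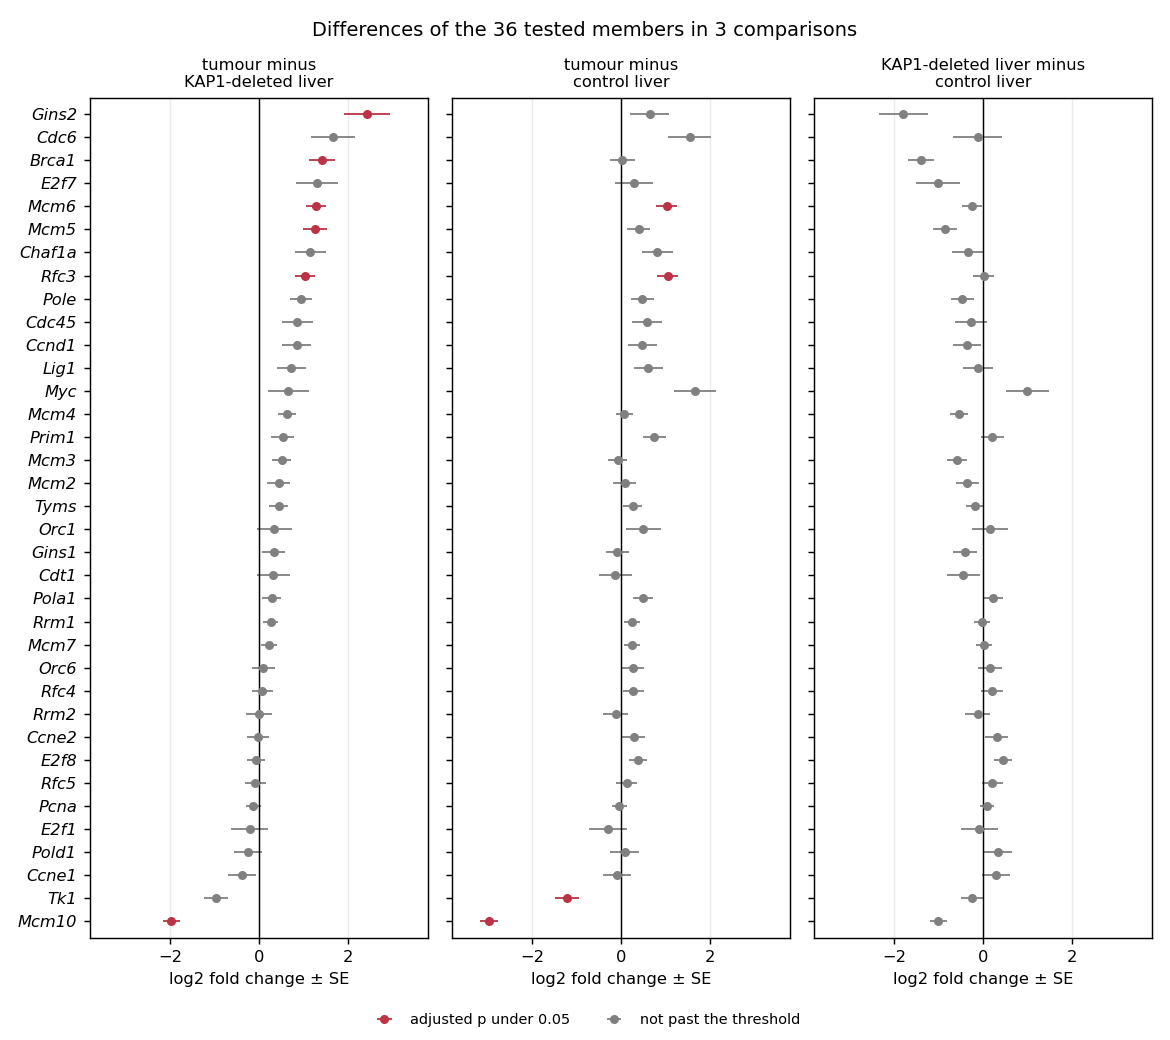
Log2 fold change ± SE of the 36 tested genes in tumour minus KAP1-deleted liver, tumour minus control liver and KAP1-deleted minus control liver, in the order of the first panel, with genes past the threshold in red. Mcm10 is lowest in both panels with tumours, and the third panel has no red point.

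Both tumours stood above all 4 livers for 16 of the 36 genes tested, where 20.3% of all genes did so. These were Ccnd1, E2f7, Orc1, Cdc6, Mcm5, Mcm6, Mcm7, Cdc45, Gins2, Pola1, Prim1, Pole, Rfc3, Lig1, Chaf1a and Rrm1, with E2f7 in tumour 1 and control liver 1 level to 3 digits. Both tumours stood below all 4 livers for 2, Mcm10 and Tk1, where 24.7% of all genes did so. Both KAP1-deleted livers were below both control livers for 12 of the 36 (14.6% of all genes): E2f7, Mcm3, Mcm4, Mcm5, Mcm6, Mcm10, Gins1, Gins2, Pole, Lig1, Chaf1a and Brca1. They were above both for 7 (16.7% of all genes): Myc, Ccne1, E2f8, Pold1, Pcna, Rfc4 and Rfc5.

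None of the 7 drivers of the G1 to S step passed the test. Myc, a transcription factor that promotes growth and cell cycle entry, was at 2.37 and 1.002 CPM in the controls, 2.52 and 4.05 in the KAP1-deleted livers and 6.75 and 3.66 in tumours. Both tumours were above both control livers, but tumour 2 was below KAP1-deleted liver 2. The difference from control liver was 1.66 ± 0.48 (edgeR adjusted p = 0.0590). It passed with DESeq2 (adjusted p = 0.00691), limma-voom (0.0475), without the count filter and without control liver 1 (0.0288).

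Ccnd1, the D-type cyclin that answers to growth signals, stood at 13.9 and 18.4 CPM in the controls, 16.8 and 8.22 in the KAP1-deleted livers and 23.0 and 22.1 in tumours. The tumours were highest, and the KAP1-deleted livers were far apart. Its difference from KAP1-deleted liver was 0.85 ± 0.32 (edgeR adjusted p = 0.1246), and 1.44 without KAP1-deleted liver 1 (edgeR adjusted p = 0.0255). It also passed with the mouse as a block (0.93, edgeR adjusted p = 0.0244) and without the filter on low counts (0.00322). Part of its exons, 23.4%, overlap a gene on the opposite strand. The E-type cyclins that act later in G1 lay close together in all libraries, Ccne1 between 0.732 and 1.11 CPM and Ccne2 between 3.75 and 6.13. E2f1, the activating E2F factor, ranged from 0.837 to 1.65 CPM, and the control livers held both ends of that range.

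The repressing E2F factors had unlike levels. E2f8 stood at 11 and 11.7 CPM in the controls, 13.4 and 17.6 in the KAP1-deleted livers and 13.7 and 16.0 in tumours, so both groups from TgAlbCreKap1lox mice were above control and overlapped each other. Its difference from control liver was 0.45 ± 0.20 in KAP1-deleted liver (edgeR adjusted p = 0.938) and 0.38 ± 0.20 in tumours (edgeR adjusted p = 0.243). E2f7 had only 6 to 23 counts a library and was lowest in the KAP1-deleted livers, with a difference of 1.31 ± 0.47 between tumour and KAP1-deleted liver (edgeR adjusted p = 0.112).

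Of the 10 genes of origin recognition and licensing, Mcm5 and Mcm6 passed the test. Orc1 and Orc6, subunits of the origin recognition complex, lay between 0.340 and 0.628 and between 3.12 and 4.82 CPM. Cdc6, which loads the MCM ring, had 6 and 17 counts in the controls, 6 and 14 in the KAP1-deleted livers and 46 and 40 in tumours. Both tumours were above all 4 livers. The differences were 1.67 ± 0.50 from KAP1-deleted and 1.54 ± 0.49 from control liver (edgeR adjusted p = 0.0687 and 0.0763), and the first passed with the mouse as a block (0.0157), in the fit to those groups alone and without the filter. Cdt1, the partner of Cdc6 in loading, lay between 0.848 and 1.62 CPM with the groups overlapping.

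Mcm6 stood at 4.65 and 4.41 CPM in the controls (mean 4.53 ± 0.165 SD, n = 2), 3.97 and 3.60 in the KAP1-deleted livers (3.79 ± 0.263) and 10.7 and 7.71 in tumours (9.19 ± 2.08). The tumours were above every liver and the livers lay close together. Mcm6 rose by 1.28 ± 0.23 on the log2 scale, 2.43-fold, against KAP1-deleted liver (edgeR adjusted p = 0.0140) and by 1.02 ± 0.23, 2.03-fold, against control liver (edgeR adjusted p = 0.0254). The first call was lost without KAP1-deleted liver 1, KAP1-deleted liver 2 or tumour 1 (adjusted p = 0.0628, 0.107 and 0.0652), and its adjusted p ran from 4.6e-05 to 0.107 over 15 alternatives. The second was lost without control liver 2 or tumour 1 (0.0842 and 0.110) and ran from 0.00171 to 0.110.

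Mcm5 stood at 2.51 and 2.56 CPM in the controls (mean 2.54 ± 0.0368 SD, n = 2), 1.48 and 1.31 in the KAP1-deleted livers and 3.85 and 2.82 in tumours. The KAP1-deleted livers were lowest and the tumours highest. Mcm5 rose by 1.26 ± 0.27, 2.39-fold, against KAP1-deleted liver (edgeR adjusted p = 0.0249). Against control liver its difference was 0.40 ± 0.26 (edgeR adjusted p = 0.353), and between KAP1-deleted and control liver it was -0.86 ± 0.27 (edgeR adjusted p = 0.538). The call was lost without KAP1-deleted liver 1, KAP1-deleted liver 2 or tumour 1 (adjusted p = 0.108, 0.193 and 0.110), over a range of 0.00125 to 0.193.

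The other 4 subunits of the ring did not pass. Mcm4 stood at 5.89 and 5.81 CPM in the controls, 3.75 and 4.24 in the KAP1-deleted livers and 6.50 and 5.83 in tumours, and Mcm3 stood at 4.24 and 4.99, 3.02 and 3.11, and 4.41 and 4.36 CPM in the same groups. For both genes the KAP1-deleted livers were lowest, and tumours and control livers overlapped. The differences between tumour and KAP1-deleted liver were 0.63 ± 0.20 for Mcm4 (edgeR adjusted p = 0.0861, and 0.0422 in DESeq2) and 0.51 ± 0.21 for Mcm3 (edgeR adjusted p = 0.160). Mcm2 and Mcm7 differed by 0.45 ± 0.26 and 0.23 ± 0.18. Only 66.6% of the 31-base words of Mcm7 are found in no other gene, so its counts are uncertain. Together the 6 ring subunits summed to 27.5 and 29.5 CPM in the controls, 23.0 and 22.4 in the KAP1-deleted livers and 38.6 and 32.8 in tumours.

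Mcm10, which binds the loaded ring and is needed for it to start unwinding, was lower in the tumours, where Mcm5 and Mcm6 were higher. It stood at 47.1 and 53.8 CPM in the controls (mean 50.5 ± 4.70 SD, n = 2), 23.0 and 27.2 in the KAP1-deleted livers (25.1 ± 2.96) and 5.76 and 7.12 in tumours (6.44 ± 0.965). The 3 groups were well apart. Mcm10 fell by 1.96 ± 0.20 on the log2 scale, 3.90-fold, in tumours against KAP1-deleted liver (edgeR adjusted p = 0.00190) and by 2.97 ± 0.20, 7.84-fold, against control liver (edgeR adjusted p = 0.000426). It was called in all 15 alternatives of the first comparison, with an adjusted p of at most 0.0171, and in all 14 of the second, with at most 0.00492.

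Between KAP1-deleted and control liver Mcm10 was 2.01-fold lower, a difference of -1.01 ± 0.19 that edgeR did not call (adjusted p = 0.117). DESeq2 called it (adjusted p = 0.00161), as did edgeR without the filter on low counts (0.000866). Per kilobase of its principal transcript, Mcm10 had 10.4 CPM in the controls, 5.15 in the KAP1-deleted livers and 1.32 in tumours. The ring subunits had medians of 1.54, 1.06 and 1.58 CPM per kilobase, so Mcm10 was above all 6 of them in both kinds of liver and within their range in tumours. Its level in CPM was 10.6 and 11.4 times the median ring subunit in the controls, 6.79 and 8.09 times in the KAP1-deleted livers and 1.06 and 1.40 times in tumours. Mcm10 shares no exon with another gene, and 99.5% of its 31-base words are found in no other gene. Of its neighbours, chosen after the values of Mcm10 were seen, Ucma had 0 counts in every library. Optn stood at 86.5 and 84.6 CPM in the controls, 77.8 and 79.3 in the KAP1-deleted livers and 91.1 and 68.5 in tumours.

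**Figure D4:**
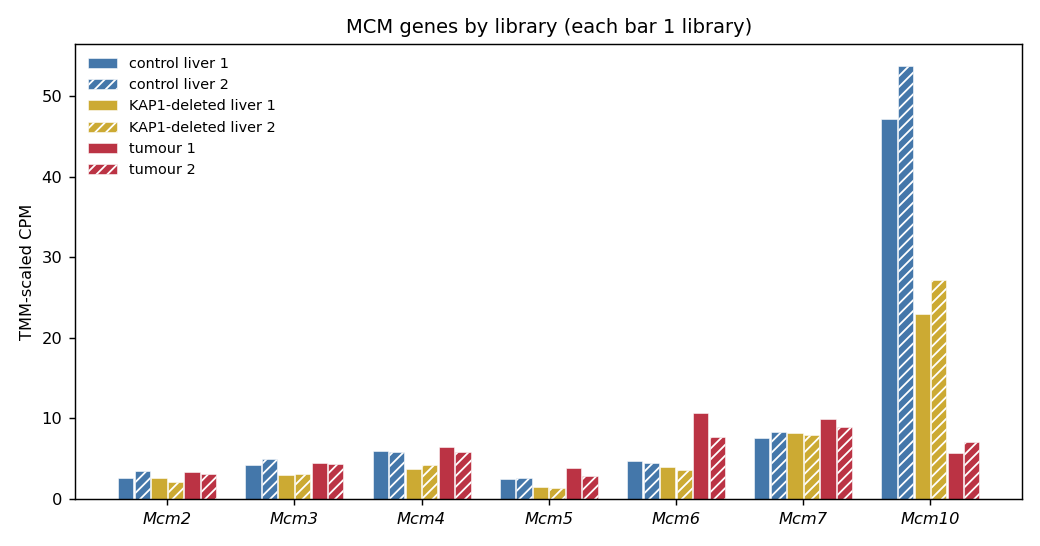
TMM-scaled CPM of the 6 ring subunits and Mcm10, each bar 1 library. Mcm10 stands above 20 CPM in the 4 livers and at 5.76 and 7.12 in the tumours, where Mcm6 reaches 10.7 and 7.71.

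Cdc45 and the GINS subunits join the ring to form the active helicase. Gins2 had 16 and 15 counts in the controls, 4 and 5 in the KAP1-deleted livers and 40 and 28 in tumours, which is 0.462, 0.255, 0.0908, 0.106, 0.552 and 0.533 CPM. The groups did not overlap, and the KAP1-deleted livers were lowest. Gins2 rose by 2.43 ± 0.51, 5.40-fold, in tumours against KAP1-deleted liver (edgeR adjusted p = 0.0241). Its difference from control liver was 0.64 ± 0.44 (edgeR adjusted p = 0.374).

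The Gins2 call was lost without KAP1-deleted liver 1, KAP1-deleted liver 2, tumour 1 or tumour 2 (adjusted p = 0.123, 0.133, 0.0990 and 0.0733, over a range of 0.00114 to 0.133). Its counts are uncertain, since 67.3% of its exons overlap Gse1 on the opposite strand. Gins1 lay between 1.70 and 2.74 CPM. Cdc45 stood at 0.635 and 1.02 CPM in the controls, 0.659 and 0.720 in the KAP1-deleted livers and 1.30 and 1.22 in tumours, above every liver, with a difference from KAP1-deleted liver of 0.87 ± 0.35 (edgeR adjusted p = 0.147).

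Among the 8 genes of polymerases, clamp and clamp loader, Rfc3 passed the test. Rfc3, a subunit of the loader that places the clamp on DNA, stood at 2.37 and 2.68 CPM in the controls (mean 2.53 ± 0.223 SD, n = 2), 2.84 and 2.27 in the KAP1-deleted livers (2.55 ± 0.404) and 5.08 and 5.39 in tumours (5.24 ± 0.218). The 2 kinds of liver overlapped and both tumours were above them. Rfc3 rose by 1.04 ± 0.23, 2.05-fold, against KAP1-deleted liver (edgeR adjusted p = 0.0294) and by 1.05 ± 0.23, 2.07-fold, against control liver (edgeR adjusted p = 0.0252). The first call was lost without KAP1-deleted liver 1, KAP1-deleted liver 2, tumour 1 or tumour 2 (adjusted p = 0.107, 0.279, 0.0886 and 0.0939, over a range of 0.00183 to 0.279). The second was lost without control liver 1, control liver 2, tumour 1 or tumour 2 (0.0677, 0.0604, 0.0736 and 0.0848, over a range of 0.00183 to 0.0848).

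The loader subunits Rfc4 and Rfc5 lay between 2.12 and 2.90 and between 4.21 and 5.73 CPM, with tumour 1 highest and tumour 2 lowest for Rfc5, and their differences between tumour and KAP1-deleted liver were 0.08 and -0.08. Pcna, the sliding clamp and a common marker of proliferating cells, stood at 24.5 and 23.3 CPM in the controls, 25.7 and 25 in the KAP1-deleted livers and 21.3 and 25.4 in tumours. Its groups overlapped between tumour and liver, and its range over the 6 libraries was 1.21 times. The difference was -0.12 ± 0.17 from KAP1-deleted liver and -0.04 ± 0.17 from control liver (edgeR adjusted p = 0.672 and 0.910), and 76.7% of its 31-base words are found in no other gene.

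Pole, the catalytic subunit of the leading strand polymerase, stood at 3.64 and 2.97 CPM in the controls, 2.52 and 2.25 in the KAP1-deleted livers and 5.26 and 3.90 in tumours. The tumours were above every liver. Its difference from KAP1-deleted liver was 0.94 ± 0.26 (edgeR adjusted p = 0.0521), and it passed in 8 of the alternatives, among them DESeq2 (adjusted p = 0.0123), the mouse as a block (0.0132), and the fits without control liver 1 (0.0430) and control liver 2 (0.0382). Prim1, the primase that starts each new strand, stood at 1.76 and 2.44, then 2.59 and 2.29, then 3.76 and 3.33 CPM in the controls, KAP1-deleted livers and tumours. Both tumours were highest, with differences of 0.54 ± 0.26 and 0.74 ± 0.26 from KAP1-deleted and control liver (edgeR adjusted p = 0.214 and 0.100). Pola1, the polymerase that extends the primer, lay at 15.5 and 16.0 CPM in tumours and between 9.03 and 13.9 in livers. Pold1, of the lagging strand polymerase, lay between 1.10 and 1.89 CPM with tumours inside the range of the livers.

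Of the genes of the lagging strand, chromatin assembly and repair, Brca1 passed. Brca1, which protects stalled forks and mends breaks by homologous recombination, stood at 4.85 and 3.09 CPM in the controls (mean 3.97 ± 1.24 SD, n = 2), 1.52 and 1.48 in the KAP1-deleted livers (1.502 ± 0.0272) and 4.47 and 3.58 in tumours (4.03 ± 0.632). Tumours and control livers overlapped, and both KAP1-deleted livers were below them. Brca1 rose by 1.42 ± 0.29, 2.68-fold, in tumours against KAP1-deleted liver (edgeR adjusted p = 0.0222), and its difference from control liver was 0.03 ± 0.28 (edgeR adjusted p = 0.958). KAP1-deleted liver differed from control by -1.39 ± 0.29 (edgeR adjusted p = 0.172), a difference that DESeq2 called (adjusted p = 0.00741). The call between tumour and KAP1-deleted liver was lost without KAP1-deleted liver 1, KAP1-deleted liver 2 or tumour 1 (edgeR adjusted p = 0.0935, 0.1252 and 0.100, over a range of 0.000106 to 0.1252).

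Chaf1a, a subunit of the histone loader CAF-1, stood at 0.722 and 0.832 CPM in the controls, 0.636 and 0.593 in the KAP1-deleted livers and 1.67 and 1.07 in tumours. Both tumours were highest, with a difference of 1.16 ± 0.36 from KAP1-deleted liver (edgeR adjusted p = 0.0746) that passed with the mouse as a block (0.0289) and without the filter (0.0388), and 52.5% of its exons overlap Ubxn6 on the opposite strand. Lig1, the ligase that seals Okazaki fragments, stood at 2.93 and 1.75 CPM in tumours and between 1.32 and 1.56 in livers, a difference of 0.73 ± 0.32 from KAP1-deleted liver (edgeR adjusted p = 0.176). Fen1, the nuclease that trims those fragments, had 2 to 8 counts a library and was not tested. Its exons overlap other genes on the opposite strand over 84.2% of their length.

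Of the 4 genes of deoxynucleotide supply, Tk1 passed the test. Tk1, the thymidine kinase of S phase, stood at 11.5 and 13.3 CPM in the controls (mean 12.4 ± 1.23 SD, n = 2), 8.15 and 12.7 in the KAP1-deleted livers (10.4 ± 3.21) and 6.08 and 4.57 in tumours (5.32 ± 1.06). Both tumours were below every liver, and the 2 kinds of liver overlapped. Tk1 fell by 1.22 ± 0.27 on the log2 scale against control liver, 2.33-fold (edgeR adjusted p = 0.0231). The call was lost without control liver 2, tumour 1 or tumour 2 (adjusted p = 0.0751, 0.0602 and 0.117, over a range of 2.6e-05 to 0.117).

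Against KAP1-deleted liver the difference of Tk1 was -0.97 ± 0.26 (edgeR adjusted p = 0.0536), and it passed with DESeq2 (0.0262), with the mouse as a block (0.0310), without the filter and without control liver 1 (0.0440) or KAP1-deleted liver 1 (0.0413). The subunits of ribonucleotide reductase stayed within narrow ranges. Rrm1 lay between 9.81 and 12.8 CPM and Rrm2 between 2.07 and 3.09, with differences of 0.26 ± 0.18 and 0.00 ± 0.28 between tumour and KAP1-deleted liver. Tyms, which makes thymidylate, stood at 23.1 and 24.2 CPM in tumours and between 16.2 and 23.2 in livers, a difference of 0.44 ± 0.21 from KAP1-deleted liver (edgeR adjusted p = 0.200).

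Other genes of the same steps were counted from 6 further lists and a list of mitosis markers, none of which had a call in KAP1-deleted against control liver. Over all genes tested, 4.8% were called higher and 6.64% lower in tumours against KAP1-deleted liver. Of 25 other G1/S regulators tested, 2 rose in tumours against KAP1-deleted liver, Rbl1 and Cdkn2c, the latter not without KAP1-deleted liver 2 (edgeR adjusted p = 0.0651). Rbl1, the pocket protein p107, stood at 2.25 and 2.29 CPM in the controls, 1.998 and 1.86 in the KAP1-deleted livers and 5.57 and 8.46 in tumours. It rose by 1.86 ± 0.27 (edgeR adjusted p = 0.00702) and was called in all 15 alternatives.

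Of 11 genes of the MYC network, 1 rose, the MYC partner Max (0.94 ± 0.20, edgeR adjusted p = 0.0253, lost without any 1 of the 4 libraries compared, up to 0.174). Of 15 further genes of licensing and firing, 2 rose, Dbf4 and Ticrr. In the same comparison 4.8% of all genes tested rose. Dbf4, the activating subunit of the kinase that fires origins, stood at 2.66 and 2.78, then 2.61 and 2.46, then 6.21 and 7.60 CPM in the controls, KAP1-deleted livers and tumours, and rose by 1.44 ± 0.22 (edgeR adjusted p = 0.00855). That call was lost without KAP1-deleted liver 1 or 2 (0.0523 and 0.0746). The Ticrr call was lost without any 1 of the 4 libraries compared (edgeR adjusted p of 0.0724 to 0.213).

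Of 26 further genes of the fork, 3 rose and 1 fell, where 4.8% of all genes tested rose and 6.64% fell. Of 19 genes of nucleotide supply 1 rose (5.26%), near the share over all genes. The gene of nucleotide supply was Mthfd2, a mitochondrial enzyme of one-carbon metabolism, at 0.404 and 0.560, then 0.545 and 0.572, then 7.44 and 5.39 CPM. It rose by 3.52 ± 0.31 against KAP1-deleted liver (edgeR adjusted p = 0.00130) and was called in all 15 alternatives. The median differences of these 5 lists between tumour and KAP1-deleted liver lay between -0.25 and 0.20. Against control liver each of the 5 had 1 gene called higher, and 1 G1/S regulator, 2 genes of the fork and 1 of nucleotide supply were called lower. The shares over all genes tested were 6.15% higher and 7.76% lower.

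Of 16 genes of the S phase checkpoint and of repair, 7 rose against KAP1-deleted liver and none fell, with a median difference of 1.32. In that comparison 4.8% of all genes tested rose and 6.64% fell. Of the 12 mitosis markers, 9 rose and none fell, with a median difference of 2.44 against 0.40 for the G1 to S and replication genes. Mki67, the Ki-67 antigen of cycling cells, stood at 4.53 and 6.71 CPM in the controls, 5.04 and 6.84 in the KAP1-deleted livers and 23.3 and 36.4 in tumours. It rose by 2.33 ± 0.30 against KAP1-deleted liver (edgeR adjusted p = 0.00475). Against control liver the counts were 3 of 16 and 9 of 12 higher, where 6.15% of all genes tested were. Differences between lists were not tested.

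**Figure D5:**
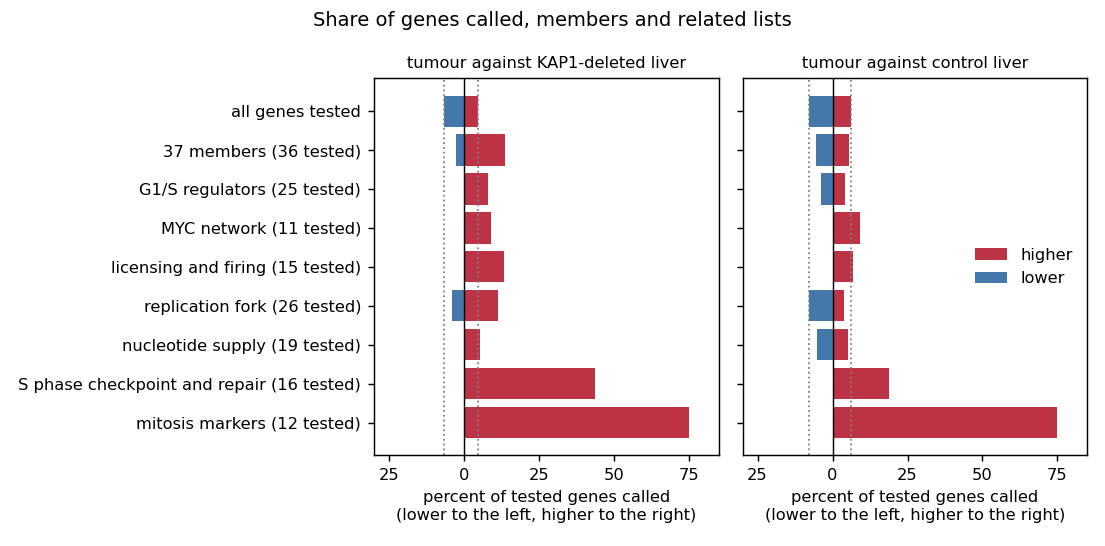
Percent of tested genes called higher (red, to the right) and lower (blue, to the left) in tumours against each kind of liver, for all genes, the 37 genes and 7 related lists, with dotted lines at the shares over all genes tested. The mitosis markers reach 75% higher in both panels, and the 37 genes reach 13.9% and 5.56%.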

How the data were processed

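RNA was measured in 4 livers and 2 liver tumours. Each deposited table holds counts, the reads assigned to each Ensembl gene. The submitters' processing notes name HTSeq 0.6.1, build mm9 and TopHat, with no version given for the last in the sources used here. The labels' protocols name total RNA, a stranded TruSeq kit and, for the extraction, cell lines, although all samples are labelled tissue. No source used here gives the annotation, the strand setting or read filters, so overlapping genes are uncertain. All libraries carry 1 batch label. Entries naming no gene, 20.9% to 27.6% of reads in livers and 33.1% to 36.7% in tumours, entered neither library sizes nor tests. Symbols matched 32919 of 37991 identifiers.

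The test was that of edgeR 4.0.16 (R 4.3.3), with TMM scaling, low genes filtered per group by filterByExpr (at least 10 counts, 15 in total), 1 mean per group over all 6 libraries and a robust quasi-likelihood fit with 3 residual degrees of freedom. Two-sided p-values were adjusted over 17558 genes by the Benjamini-Hochberg method, with a threshold of 0.05. They rest on the spread within groups of 2 libraries, pooled over the groups and in part across genes. All 6 libraries were treated as independent, although 2 mice gave both a tumour and a KAP1-deleted liver. Alternatives used limma 3.58.1, DESeq2 1.42.0, other scalings and filters, the compared groups alone, a mouse block and each library left out. The code was tested on simulated data. No pair of replicates agreed within sampling noise (chi-square over degrees of freedom of at least 82.6).

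The members and lists were chosen with earlier results of these data known. Named genes are Trim28, the members, up to 4 genes per list with the smallest adjusted p in tumour against KAP1-deleted liver, and the most abundant markers, some of which are not reported here. Mouse codes pair each tumour with a KAP1-deleted liver, and the deviations of the pairs correlated with r = 0.185. Overlaps, transcript lengths and 31-base words came from the GRCm38 reference, and promoters from RefSeq on GRCm38.p6.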

Additional observations from a re-analysis of the deposited data

How the results depend on the processing

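With 2 libraries a group, each member call other than those of Mcm10 was lost without at least 1 library. For tumour against KAP1-deleted liver, 5 members were higher and 1 lower, and leaving out 1 library gave 0 to 6 and 1 to 2. With no filter beyond 1 count these became 9 and 2, with the mouse as a replicate block 9 and 2, and with DESeq2 the lower count became 2. The block leaves 1 residual degree of freedom. No mouse gave both a control liver and another tissue, so it could not be applied to the other comparisons. Over all genes, 842 higher and 1165 lower became 970 and 896 with upper-quartile scaling, 1563 and 2256 with no filter and 1571 and 2318 with the block, and ranged from 295 to 1093 and from 265 to 1684 with 1 library left out. For tumour against control liver, 2 members higher became 4 with no filter and 0 to 3 with 1 library left out, and 2 lower became 1 to 2. Over all genes, 1080 higher and 1363 lower became 1801 and 2314 with no filter, and 663 to 998 and 440 to 1623 with 1 library left out.

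For KAP1-deleted against control liver, no member was higher under any alternative (0 to 0 with 1 library left out), and 0 lower became 2 with no filter and 2 with DESeq2. Over all genes, 42 higher became 354 with no filter, 26 with a mean CPM of at least 1, 152 with DESeq2, 26 with limma-voom, 13 in the fit to those groups alone and 20 to 64 with 1 library left out. The 17 lower became 217, 8, 78, 12, 7 and 8 to 20 in that order. No called gene named here changed direction under any of the 15 alternatives, and 60 values of uncalled members changed sign. Other scalings took the median over all genes from -0.03 to 0.06 at most on the log2 scale in tumour against KAP1-deleted liver, with upper-quartile scaling. Gins2, E2f7, Cdc6 and Fen1 have too few counts for small differences to be detectable. The cause of these changes was not tested.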

Other observations

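Between tumour 1 and tumour 2 the mitosis markers went 1 way and the replication genes were split. All 12 mitosis markers were higher in tumour 2 (median log2 ratio of tumour 1 to tumour 2 of -0.47), where 8814 of 17524 genes detected in both were higher in tumour 1. Of the 36 tested G1 to S and replication genes, 22 were higher in tumour 1, with a median log2 ratio of 0.08 and a range from -0.34 to 0.89. Myc was at the upper end, at 6.75 CPM in tumour 1 and 3.66 in tumour 2, and Lig1, Chaf1a and Brca1, the tested genes of the lagging strand, chromatin and repair group, were all higher in tumour 1. In KAP1-deleted livers, 9 of the 12 mitosis markers were higher in replicate 2, and in control livers 8 of 12 were. Of the 36 G1 to S and replication genes, 22 were higher in replicate 1 of the KAP1-deleted livers, as many as in tumours, and 19 in control liver 1. With 1 library per mouse and tissue these differences between libraries have no replicate and were not tested.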
